A study of Sus scrofa domesticus with 2 samples.

Results

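ACTA2 encodes smooth muscle α-actin, the actin of the contractile apparatus of vascular smooth muscle and of myofibroblasts. In the endothelial to mesenchymal transition (EndMT), endothelial cells (ECs) lower junctional and endothelial genes and take up mesenchymal ones, and ACTA2 and TAGLN, which encodes the actin-binding protein transgelin, are widely used as markers of that state. A transcript of ACTA2 in a PECAM1-positive cell is therefore often read as a sign of EndMT. The lung ECs that carried ACTA2 transcripts were examined here to ask whether the other genes of a mesenchymal programme were raised in the same cells.

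The cells were primary cultures from the domestic pig (Sus scrofa domesticus), with no genetic change and no added agent named in the labels. Cells were freed from 1 lobe of perfused lung by collagenase and cultured in DMEM containing 10% fetal calf serum, so the culture can hold other cells of the lung wall beside ECs. ECs of the aorta near to the lung were also released by digestion and grown in the same medium. Each tissue gave 1 single-cell RNA sequencing (scRNA-seq) library. By the study's methods, tissue for scRNA-seq came from slaughterhouse pigs, crosses of Landrace, Large White and Duroc, and no number of animals or passages is given there for the cultures themselves. Transcripts were counted as molecules by their unique molecular identifiers (UMIs).

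The lung data comprised 5946 cells and 57213236 UMIs, the median cell having 9326, and the aorta data comprised 1185 deeper cells and 46080859 UMIs, the median cell having 45594. Of 7131 cells in both, 5 barcode sequences were shared between the libraries, and 0 of these were barcodes of the cells described here. In the lung, 5682 cells had over 200 but under 5000 detected genes and a mitochondrial share of UMIs below 30%. Of these, 4879 had at least 5 UMIs of PECAM1, the endothelial adhesion molecule CD31, and at most 1 UMI of COL1A1 and COL1A2 together, the chains of type I collagen. ACTA2-carrying cells were chosen by at least 1 ACTA2 UMI, and 177 of the 4879 cells met that rule (3.63%, 95% Clopper-Pearson interval 3.12 to 4.19). The other 4702 had 0 ACTA2 UMIs. With 1 library per tissue no difference was tested, and all intervals cover counting error only and not the spread between animals or cultures.

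ACTA2 was detected as a single molecule in most of the chosen cells. Of the 177 cells, 161 (91.0%) held 1 ACTA2 UMI, 9 held 2, 3 held 3, and 1 cell each held 4, 5, 6 and 10. The 213 ACTA2 UMIs of these cells came to 4.35 CPM, UMIs of the gene per 1000000 UMIs, over all 4879 cells (95% Poisson interval 3.78 to 4.97). The 16 cells with 2 or more held 52 of the 213 UMIs (24.4%). In the same library, 301 collagen-rich cells, defined by 20 or more type I collagen UMIs and under 5 PECAM1 UMIs, held ACTA2 in 240 cells (79.7%, 74.7 to 84.1) at 1266 CPM. These levels are a description, since ACTA2 was used to choose the cells.

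**Figure D1:**
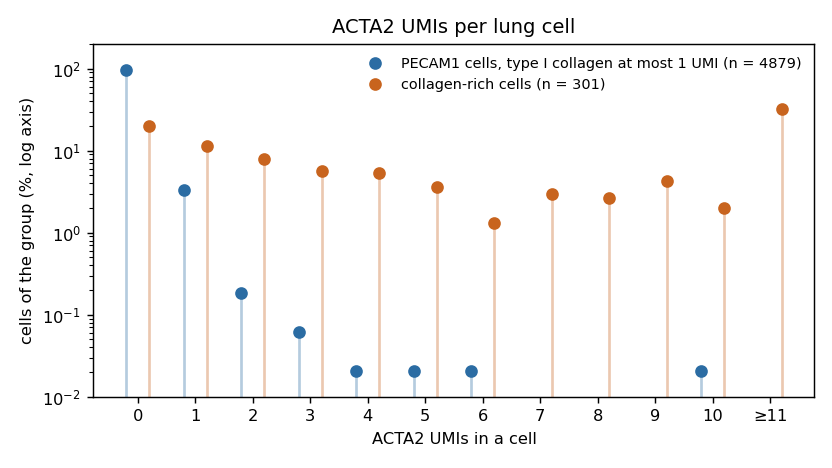
Share of cells (%, log axis) by the number of ACTA2 UMIs in a cell, for the 4879 PECAM1 cells with at most 1 type I collagen UMI (blue) and the 301 collagen-rich cells (orange) of the lung library. Of the blue cells with ACTA2, 161 sit at 1 UMI and 1 reaches 10, while the orange cells spread over the whole axis.

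The share of cells with ACTA2 rose with sequencing depth, while the level of ACTA2 in CPM did not follow depth. The 4879 cells were put in order of total UMIs and cut into 5 groups of equal size. From the shallowest to the deepest group, the share with ACTA2 was 2.15%, 3.18%, 3.18%, 3.996% and 5.64%. The level over the same groups was 4.57, 3.995, 3.66, 3.95 and 5.16 CPM, and the 5 intervals overlapped. The ACTA2-carrying cells were thus deeper, with a median of 10369 UMIs against 9464 in the cells without ACTA2. When every cell was thinned to 5000 UMIs, 99 of 4689 cells (2.11%, 1.72 to 2.56) kept an ACTA2 UMI, and 190 shallower cells were left out.

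**Figure D2:**
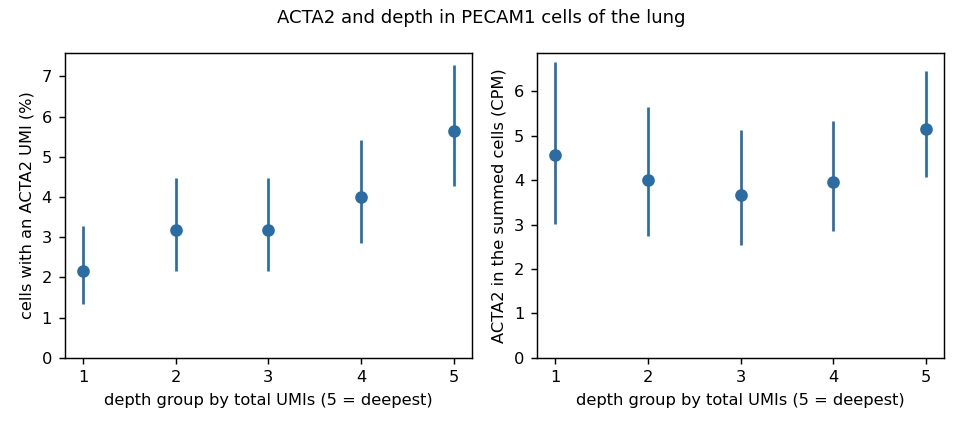
Left, share of the 4879 PECAM1 cells with an ACTA2 UMI (%) in 5 groups of rising total UMIs, with 95% Clopper-Pearson intervals, and right, ACTA2 level (CPM) in the same groups, with 95% Poisson intervals. The share goes from 2.15% to 5.64%, whereas the level lies between 3.66 and 5.16 CPM.

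Immune cells, which should lack ACTA2, were too few to give a background share. Of 13 lung cells with 10 or more UMIs of immune markers and under 5 PECAM1 UMIs, 1 held ACTA2 (7.69%, 0.195 to 36.0), at a median depth of 4986 UMIs against 9491 in the PECAM1 cells. The share of 3.63% in the PECAM1 cells did not exceed this value, and it is not read here as expression by itself. In the aorta, 1 of 58 cells that met the same PECAM1 and collagen limits held ACTA2 (1.72%, 0.0436 to 9.24). Without the upper limit on genes, which most of the deeper aorta cells exceeded, 34 of 283 aorta cells did (12.01%), and after thinning to 5000 UMIs 6 of 277 (2.17%, 0.799 to 4.65).

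Around the limits of the rule, the share of cells with ACTA2 was higher in the few cells with more type I collagen, with overlapping intervals up to 4 collagen UMIs. Among cells with at least 5 PECAM1 UMIs, ACTA2 was present in 134 of 3883 with 0 collagen UMIs (3.45%), 43 of 996 with 1 (4.32%), 10 of 155 with 2 (6.45%) and 3 of 31 with 3 to 4 (9.68%). These groups also differed in depth, with medians of 9307, 10393.5, 11366 and 11584 UMIs. The level of ACTA2 was 4.36, 4.31, 10.9 and 7.89 CPM, with 20 UMIs behind the third value and 3 behind the last. Just outside the PECAM1 limit, 4 of 66 cells with 4 PECAM1 UMIs held ACTA2, and just inside it 2 of 95 cells with 5 did. A further 34 cells had at least 5 PECAM1 UMIs together with 20 or more type I collagen UMIs, and 27 of them (79.4%) held ACTA2 at 643 CPM. These mixed cells are outside the rule. No doublet caller was run, and the part of doublets in them was not tested.

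The label of the cells was then checked against endothelial genes that the rule did not use. For this and the comparisons that follow, each ACTA2-carrying cell was matched with 5 cells of the same kind with 0 ACTA2 UMIs and the nearest total UMIs, 885 cells in all. Median total UMIs were 10369 and 10368, median detected genes 3096 and 3081, and median mitochondrial shares 5.53% and 5.33% in the ACTA2-carrying and matched cells. The 21 endothelial identity genes in the file summed to 5725 CPM in the ACTA2-carrying cells and 5560 CPM in the matched cells, a ratio of 1.03 (1.01 to 1.05), against 262 CPM in the collagen-rich cells. CDH5, which encodes VE-cadherin of the endothelial junction, was present in 138 of 177 cells (78.0%) and 688 of 885 matched cells (77.7%), at 154 and 156 CPM.

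Other endothelial genes were at like levels in both groups. ICAM2, an endothelial adhesion molecule, was at 353 and 331 CPM, and ERG, an endothelial transcription factor, was at 135 and 131 CPM. VCAM1, which binds leukocytes on activated endothelium, was at 3206 and 3082 CPM. It gave 6378 of the 11389 UMIs of the endothelial identity genes in the ACTA2-carrying cells. The sum of those genes and its ratio of 1.03 therefore rest largely on VCAM1. NOS3, the endothelial nitric oxide synthase, was at 52.3 and 50.7 CPM. Of 17 endothelial genes at 10 CPM or more, 0 were 1.5-fold higher and 0 were 1.5-fold lower in the ACTA2-carrying cells. Across all 7408 genes at that level the median ratio was 0.997, with 65 genes (0.877%) at least 1.5-fold higher and 90 genes (1.21%) at least 1.5-fold lower. VWF and KDR, which mark ECs in tissue, were near absent in both groups, with 0 and 5 UMIs in the 177 cells and 5 and 19 UMIs in the 885.

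The contractile genes that accompany ACTA2 in smooth muscle were, in sum, at the level of the matched cells in the ACTA2-carrying cells as a whole. The 15 genes of the smooth muscle contractile list, with ACTA2 left out, summed to 3646 CPM against 3643 CPM in the matched cells, a ratio of 1.00 (0.976 to 1.03), and 7706 CPM in the collagen-rich cells. TPM1, TAGLN and CALD1 gave 3400, 1858 and 1564 of the list's 7254 UMIs in the ACTA2-carrying cells. The sum therefore rests on these abundant genes and says little of the rarer ones. Of 6 genes of the list at 10 CPM or more, 0 passed 1.5-fold in either direction, as 0.877% of all genes did upward and 1.21% downward, so that count is near the background. Their median ratio was 1.02, against 0.997 over all genes.

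TAGLN was abundant with or without ACTA2. It was at 934 CPM in the ACTA2-carrying cells and 973 CPM in the matched cells, a ratio of 0.960 (0.913 to 1.01). TAGLN UMIs were present in 171 of 177 cells (96.6%) and 857 of 885 cells (96.8%), with medians of 8 and 9 UMIs and ranges of 0 to 51 and 0 to 75. The groups overlapped throughout, and TAGLN did not separate the cells with ACTA2 from those without. Read the other way, ACTA2 was present in 6 of 186 cells with 0 TAGLN UMIs (3.23%), 52 of 1482 cells with 5 to 9 (3.51%) and 22 of 505 cells with 20 to 49 (4.36%). Among the 14 cells with 50 or more TAGLN UMIs, 2 held ACTA2, 11 UMIs between them.

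The tropomyosins and the other filament proteins of the list gave like values. TPM1, a tropomyosin of the actin filament that many cell types use, was at 1709 and 1691 CPM, a ratio of 1.01. TPM2, a tropomyosin of muscle, was at 87.0 and 78.8 CPM, a ratio of 1.10 (0.931 to 1.30), and at 1386 CPM in the collagen-rich cells. MYL9, a regulatory light chain of myosin, was at 95.01 and 99.4 CPM. CALD1, caldesmon, was at 786 and 769 CPM, and SMTN, smoothelin, was at 25.6 and 23.4 CPM.

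The genes of the list that are most restricted to smooth muscle were near the floor of detection. CNN1, calponin, ACTG2, smooth muscle γ-actin, LMOD1, leiomodin, and MYH11, the smooth muscle myosin heavy chain, had 2 UMIs each in the 177 cells, against 14, 5, 4 and 14 UMIs in the 885 matched cells. MYH11 had 0 CPM in the collagen-rich cells too, where CNN1 was at 64.3 CPM and ACTG2 at 220 CPM. The counts for MYH11 are those of ENSSSCG00000000146, with the symbol used as deposited. Whether that feature is the smooth muscle gene was not checked, so its low count says little. MYLK, the myosin light chain kinase, had 11 UMIs against 46. DES, SYNPO2, PLN and MYOCD, of which MYOCD encodes the coactivator that drives the contractile genes, had 0 UMIs in the 177 cells. A count of 0 in 177 cells, taken at the limit of 3 counts, allows a share of cells with a UMI of up to 1.69%.

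In muscle cells, serum response factor binds the CArG box, a run of A and T between CC and GG, before many contractile genes, and myocardin acts through it. The boxes near the starts of the contractile genes are shown because the genes were followed as 1 group. In the RefSeq annotation of Sscrofa11.1, the window from 250 bases before to 50 bases after the gene start held a CArG box in 298 of 19509 genes (1.53%). TAGLN had 2 and MYL9 had 1. No match was found in this window for ACTA2, ACTG2, CNN1, MYH11, TPM1, TPM2 or CALD1. Only exact boxes of 10 bases, with A or T alone between CC and GG, were searched for. Boxes with another base in that run, or outside the window, would be missed, so a gene without a match may still have a box. Below, the strand is the plus strand for all, capitals mark the box, and the boxes start 191 and 64 bases before the start of TAGLN and 70 bases before that of MYL9.
TAGLN, chr9:44561555-44561584: gtcctcctgtCCATAAAAGGcttttcccgg
TAGLN, chr9:44561682-44561711: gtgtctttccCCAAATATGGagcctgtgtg
MYL9, chr17:39788085-39788114: tgggtcgaagCCAAATAAGGccgggctgct
In the annotation ACTA2 lies on chromosome 14 at 100868145 to 100886732 on the minus strand, TAGLN on chromosome 9 at 44561756 to 44567385 on the plus strand and PECAM1 on chromosome 12 at 14667643 to 14723296 on the plus strand. The counts rest on Ensembl gene models, whose ends may differ.

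Matrix genes, which mark fibroblasts, were at like levels, and mural genes, which mark pericytes, rested on few UMIs. The 20 mesenchymal matrix genes summed to 1601 CPM in the ACTA2-carrying cells and 1557 CPM in the matched cells, a ratio of 1.03 (0.989 to 1.07). Of 10 matrix genes at 10 CPM or more, 0 passed 1.5-fold in either direction. As 0.877% of all genes did so upward and 1.21% downward, that count is near the background. FN1, fibronectin, was at 135 and 128 CPM, and SPARC, a matrix protein of many mesenchymal cells, was at 166 and 170 CPM. POSTN, periostin, was at 397 and 349 CPM, a ratio of 1.14. COL3A1, the chain of type III collagen, had 2 UMIs in the 177 cells and 15 in the 885, and COL6A1, a chain of type VI collagen, had 5 and 21. Type I collagen, which the rule capped, was present as 1 UMI in 43 cells (24.3%) and 188 matched cells (21.2%).

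Among the 10 mural genes, MCAM, an adhesion molecule that ECs share with pericytes, was the 1 at 10 CPM or more, at 20.6 and 16.4 CPM. The list summed to 56 UMIs in 177 cells and 213 in 885, a ratio of 1.31 (0.961 to 1.77). In the 161 cells with 1 ACTA2 UMI the ratio was 1.42 (1.03 to 1.93), from 54 and 190 UMIs, and in the 16 cells with 2 or more it was 0.435 (0.0497 to 1.76), from 2 and 23 UMIs. TBX18, a transcription factor of mural cells, had 7 UMIs in 7 cells (3.95%) and 13 UMIs in 13 matched cells (1.47%), a ratio with an interval that reached 0.909. PDGFRB, the receptor that defines pericytes, had 2 and 5 UMIs. NOTCH3 had 6 and 26 UMIs. CSPG4, RGS5, KCNJ8, ABCC9, ANPEP and HIGD1B had 0 UMIs in the 177 cells.

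**Figure D3:**
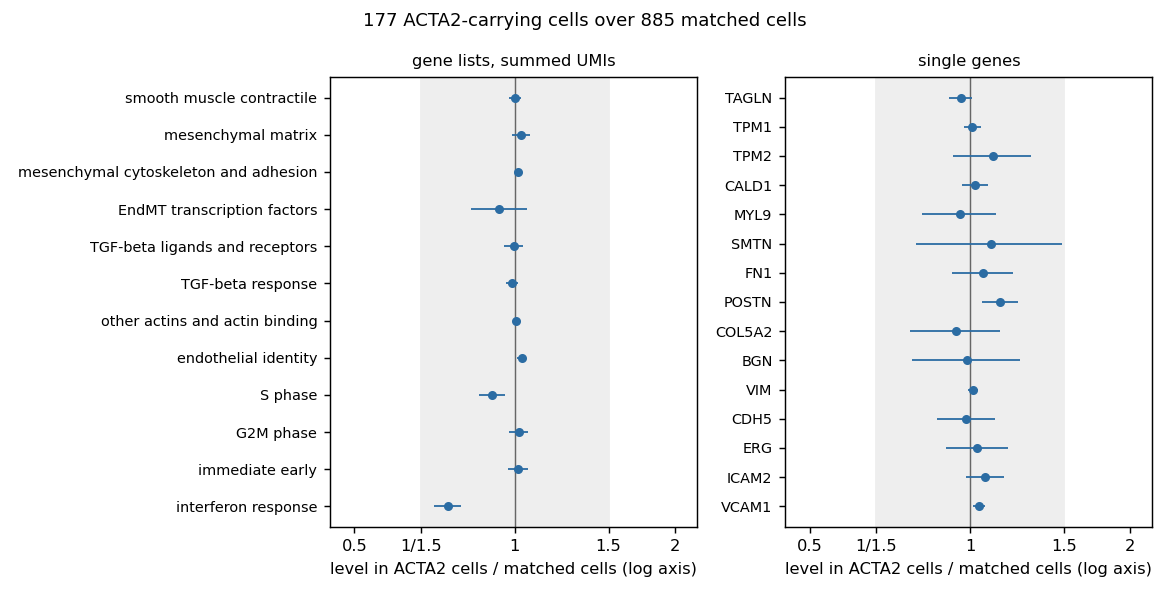
Ratio of the level (CPM of summed UMIs, log axis) in the 177 ACTA2-carrying cells to that in the 885 matched cells, for gene lists (left) and single genes (right), with 95% intervals of counting error and the band between a 1.5-fold decrease and a 1.5-fold increase in grey. The contractile list sits at 1.00 and TAGLN at 0.960, and every point drawn lies inside the band.

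The regulators of EndMT were at like levels in both groups, by ratios of summed UMIs from 0.935 to 0.997. Transforming growth factor-β (TGF-β) signals through paired receptors and SMAD proteins and is a classical inducer of EndMT. Of 11 genes for TGF-β ligands, receptors and SMADs at 10 CPM or more, 0 passed 1.5-fold in either direction, and the list had a ratio of 0.997 (0.957 to 1.04). With 0.877% of all genes past that fold upward, a count of 0 in lists this short is near the background. TGFB2, a ligand, was at 317 and 302 CPM, and TGFBR2, the receptor that binds ligand first, was at 256 and 243 CPM. SMAD3 had a ratio of 1.23 (1.02 to 1.46) and ACVRL1, a receptor, of 1.31 (0.963 to 1.76). SMAD2, at 0.805 (0.652 to 0.986), and BMP4, a ligand, at 0.867 (0.778 to 0.965), went the other way. The 8 TGF-β response genes at that level had 0 past 1.5-fold, with a list ratio of 0.988 (0.962 to 1.01). Of them CCN2, a matricellular growth factor, was at 1661 and 1713 CPM.

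Of 5 EndMT transcription factors at 10 CPM or more, 0 passed 1.5-fold, and the list of 12 had a ratio of 0.935 (0.827 to 1.06). ZEB1 was at 34.2 and 33.2 CPM and ZEB2 at 43.7 and 52.2 CPM, both repressors of epithelial and endothelial junction genes. SNAI1 had 10 UMIs in the 177 cells and 43 in the 885, SNAI2 had 1 and 3, and TWIST1 and TWIST2 had 0 in both. Among 11 mesenchymal cytoskeleton and adhesion genes at 10 CPM or more 0 passed the fold, where 0.877% of all genes did upward and 1.21% downward. VIM, vimentin, was at 4929 and 4862 CPM. The ratios of the 11 ran from 0.920 (0.831 to 1.02) for CNN3 to 1.38 (1.01 to 1.86) for S100A4. S100A4 was at 28.7 and 20.7 CPM, and at 854 CPM in the collagen-rich cells. ACTG1 and ACTB, the cytoplasmic actins, were at 4998 and 5093 CPM and at 1796 and 1798 CPM.

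The cells with 2 or more ACTA2 UMIs differed from those with 1. In the 161 cells with 1 ACTA2 UMI, TAGLN was at 881 CPM against 979 CPM in their own matched cells, a ratio of 0.900 (0.853 to 0.949). In the 9 cells with 2 UMIs the ratio was 1.16 (0.947 to 1.42), and in the 7 cells with 3 or more it was 2.30 (1.88 to 2.80). The cells matched to these 7 had TAGLN at 830 CPM, below the 973 CPM of all matched cells. Against that higher level the ratio of the 7 cells would be smaller. Over the 16 cells with 2 or more UMIs, TAGLN was at 1453 CPM against 912 CPM in 80 matched cells, a ratio of 1.59 (1.38 to 1.83). Without the cell with the most ACTA2, the ratio was 1.42 (1.22 to 1.66). Of the 16 cells, 8 held 20 or more TAGLN UMIs (50%, 24.7 to 75.3), against 13 of the 80 matched cells (16.3%, 8.95 to 26.2).

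The tropomyosins were also higher in the 16 cells. TPM1 was at 2334 against 1608 CPM, a ratio of 1.45 (1.30 to 1.62), and TPM2 at 173 against 54.0 CPM, a ratio of 3.20 (1.99 to 5.08). The 80 matched cells were low in TPM2, which was at 78.8 CPM over all matched cells. The 16 cells were above that level too, but the ratio to it would be smaller than 3.20. TPM2 was present in 9 of the 16 cells and 31 of the 80, and 1 cell held 10 of the 32 TPM2 UMIs. CALD1 had a ratio of 1.22 (1.02 to 1.45) and MYL9 of 1.06 (0.621 to 1.74). The contractile list as a whole had a ratio of 1.46 (1.35 to 1.57) in these cells, against 0.958 (0.932 to 0.984) in the 161 cells with 1 UMI. The split by ACTA2 UMIs uses the measure that chose the cells, but the values of TAGLN, TPM1 and TPM2 were not part of the rule. The intervals count UMIs and do not hold the spread between the 16 cells.

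By the sum of the endothelial list, the same 16 cells were at the level of their matched cells or above. They held few UMIs of the mesenchymal genes named below. The endothelial list had a ratio of 1.10 (1.03 to 1.18). VCAM1, at 3090 CPM against 2625 CPM, gave 572 of the list's 1011 UMIs in these cells. CDH5 had a ratio of 1.02 (0.660 to 1.53) and was present in 11 of the 16 cells (68.8%). PECAM1, which the rule used and the list leaves out, had a median of 1341 CPM in the 16 cells. Its median was 1577 CPM in all 885 matched cells. The matrix list had a ratio of 1.09 (0.966 to 1.23). ACTG2, COL6A1, CSPG4 and PDGFRB had 0 UMIs in all 16 cells, COL3A1 and CNN1 had 1 UMI each, and 4 of the 16 cells had 1 type I collagen UMI. At these low levels the zeros say little, since ACTG2 was also at 0 in the 80 matched cells.

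One by one, the 16 cells were not alike. The cell with 10 ACTA2 UMIs had 50 TAGLN, 16 TPM1, 5 TPM2, 22 PECAM1 and 32 VCAM1 UMIs at 19679 UMIs in all, deeper than 98% of the cells of its kind. The cell with 6 ACTA2 UMIs had 13 TAGLN, 24 TPM1 and 39 VCAM1 UMIs at 12331 UMIs. The cell with 5 had 28 TAGLN, 45 TPM1, 8 CDH5 and 93 VCAM1 UMIs at 15492 UMIs. These 3 cells held ACTA2 beside clear endothelial transcripts.

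The cell with 4 ACTA2 UMIs stood apart, with 0 TAGLN and 2 TPM1 UMIs at 2847 UMIs and a mitochondrial share of 20.5%. Of the 3 cells with 3 ACTA2 UMIs, those with 10871 and 10011 UMIs had 25 and 29 TAGLN UMIs, and the one with 5934 UMIs had 2. Among the 9 cells with 2 ACTA2 UMIs, TAGLN ran from 1 to 31 UMIs, with 4 cells at 22 or more and 4 cells at 3 or fewer. High TAGLN thus accompanied ACTA2 in some of the 16 cells and not in others.

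**Figure D4:**
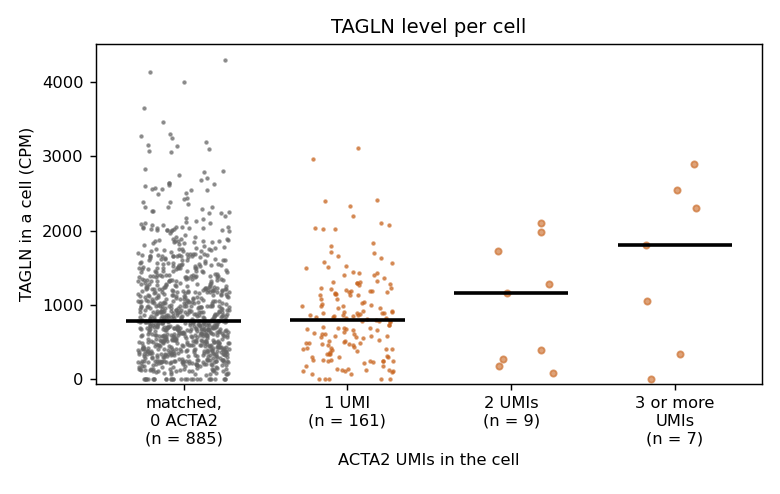
TAGLN level in each cell (CPM) for the 885 matched cells with 0 ACTA2 UMIs and for the ACTA2-carrying cells with 1 (n = 161), 2 (n = 9) and 3 or more (n = 7) ACTA2 UMIs, with the median of each group as a bar. The points of all groups overlap, and the cells with 3 or more UMIs include 1 at 0 CPM and 1 at 2897 CPM.

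Other transcripts that are abundant in the collagen-rich cells were set beside ACTA2. Besides ACTA2, 13 genes of the contractile, mural and matrix lists reached 20 CPM in the collagen-rich cells and exceeded the PECAM1 cells there by 20-fold or more, a rule set after the values had been seen. ACTA2 in the 4879 PECAM1 cells was at 0.343% of its level in the collagen-rich cells (0.298 to 0.394). The 13 other genes ranged from 0.175% for CSPG4 to 2.91% for THY1, with a median of 0.307%, and 7 lay below ACTA2 and 6 above it. COL6A1 was at 0.306% (0.255 to 0.366), COL3A1 at 0.233% (0.178 to 0.3002) and ACTG2 at 0.186% (0.113 to 0.289). CNN1 was at 1.97% (1.46 to 2.63). Over all lists 19 genes met the same limits, from 0.121% for CDH2 to 2.91% for THY1, with a median of 0.594%, and 9 lay below ACTA2 and 10 above it.

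**Figure D5:**
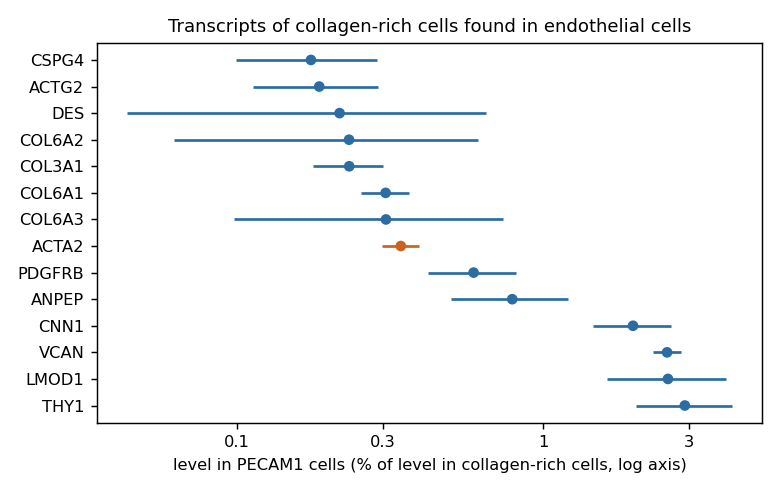
Level of 14 genes in the 4879 PECAM1 cells of the lung as a percentage of their level in the 301 collagen-rich cells (log axis), with 95% intervals of counting error. ACTA2 (orange) lies at 0.343%, between COL6A3 at 0.307% and PDGFRB at 0.594%.

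Most of these transcripts were found as single UMIs in the PECAM1 cells, as ACTA2 mostly was. COL6A1 had 128 UMIs in 127 of the 4879 cells and COL3A1 62 UMIs in 61, with 1 cell each at 2 UMIs. CNN1 had 62 UMIs in 62 cells, ACTG2 20 in 20 and CSPG4 16 in 16, each with 0 cells at 2 or more. ACTA2 had 213 UMIs in 177 cells, with 16 cells at 2 or more (9.04% of the cells with the gene). THY1, a surface protein of fibroblasts, had 46 UMIs in 35 cells, with 3 cells at 2 or more (8.57%), and VCAN, the matrix proteoglycan versican, had 479 UMIs in 454 cells, with 22 at 2 or more (4.85%). In the collagen-rich cells, 68.4% of cells held 2 or more ACTA2 UMIs and 89.7% held 2 or more COL6A1 UMIs.

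The 13 transcripts were then counted in the ACTA2-carrying and matched cells. A UMI of any of the 13 was present in 24 of 177 cells (13.6%, 8.88 to 19.5) and in 169 of 885 matched cells (19.1%, 16.6 to 21.8). Summed, they gave 26 and 197 UMIs, a ratio of 0.660 (0.420 to 0.996). VCAN, with 10 and 105 UMIs, and THY1, with 0 and 19, decided that ratio. The other 11 genes gave 16 and 73 UMIs, a ratio of 1.10 (0.595 to 1.90), and were present in 16 cells (9.04%) and 70 cells (7.91%). Over the 19 genes of all lists the ratio was 1.01 (0.809 to 1.25). Whether free RNA gave the single ACTA2 UMIs was not tested.

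To ask whether 1 ACTA2 UMI foretold another in the same cell, the UMIs of each cell were assigned at random and with equal chance to a part A and a part B, and the expected value over all such assignments was taken within 5 strata of depth. Cells with ACTA2 in part A had ACTA2 at 37.6 CPM in part B, and cells without it in part A had 3.62 CPM, a ratio of 10.4 (6.33 to 16.1). For abundant genes the ratio also holds the ordinary differences between cells. It was 10.1 for VCAM1, 3.23 for TAGLN and 1.77 for GAPDH, so the ratio alone does not set ACTA2 apart from such genes. Without the cell with 10 UMIs the ratio was 7.93 (4.43 to 13.1), and without the 7 cells with 3 or more it was 2.57 (0.770 to 6.25), so that much of the ratio rested on 7 cells. For COL3A1, with 1 cell at 2 UMIs, the ratio was 2.27 (0.00223 to 21.2). For CNN1 and ACTG2, with 62 and 20 UMIs and no cell above 1 UMI, it could only be 0. For the immune genes PTPRC, TYROBP and LYZ, with 12, 28 and 151 UMIs in the PECAM1 cells, it was 532, 690 and 3853.

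Over all genes, the differences between the ACTA2-carrying and matched cells were small and rested on few UMIs. The middle of the distribution was narrow, with the 5th percentile of the ratio at 0.778 and the 95th at 1.27. The 10 genes with the largest rise had ratios from 1.71 to 1.93. Among them F11R, which encodes the junctional adhesion molecule A of endothelial and epithelial junctions, had 1.85 (1.14 to 2.91). EPHX1, a microsomal epoxide hydrolase, had 1.82 (1.33 to 2.48). MGP, a matrix protein that inhibits calcification, had 1.78 with UMIs in 11 cells (6.21%) and 40 cells (4.52%), and it was at 87.9 CPM in the collagen-rich cells.

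Also among the genes with the largest rise were ENSSSCG00000035649 at 1.93, RFX5, a regulator of MHC class II genes, at 1.83, BEX3 at 1.79, ILVBL at 1.78, SRCAP, a chromatin remodeller, at 1.76 and NNAT at 1.71. None of the 10 belonged to the contractile, mural, matrix or EndMT transcription factor lists. Those lists had only 6, 1, 10 and 5 of the 7408 genes compared, so their absence among 10 genes says little. The 10 with the largest fall, apart from CCL5, had ratios from 0.454 for TIPIN, a replication fork protein, to 0.542 for BHLHE40, a stress-responsive repressor, and 14 to 32 UMIs in the ACTA2-carrying cells. GLB1, PUS1, ADIPOR2, ENSSSCG00000021851, NOCT, SFR1 and OTUD6B lay between these 2.

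Interferon-response genes were lower in sum in the ACTA2-carrying cells. The list summed to 666 CPM in the ACTA2-carrying cells and 890 CPM in the matched cells, a ratio of 0.748 (0.706 to 0.793), and 3 of 9 genes were at least 1.5-fold lower, where 1.21% of all genes were. The median cell held 3 UMIs of the list in both groups, and the 5 cells with the most held 32.3% of the list's UMIs in the ACTA2-carrying cells and 18.4% in the matched cells. CXCL10, an interferon-induced chemokine, had 4 UMIs in 4 of 177 cells (2.26%) and 351 UMIs in 30 of 885 (3.39%), and 5 matched cells held 74.4% of the 351. Without CXCL10 the list had a ratio of 0.777 (0.733 to 0.823). ISG15, a ubiquitin-like interferon-induced protein, had a ratio of 0.815 (0.760 to 0.874), with UMIs in 129 cells (72.9%) and 616 matched cells (69.6%). CCL5, a chemokine outside the list and the gene with the largest fall by the naming rule, was at 44.2 and 142 CPM, in 20 cells (11.3%) and 106 cells (11.98%), with 5 matched cells holding 57.9% of its matched UMIs.

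Genes of DNA replication were slightly lower in the ACTA2-carrying cells. The S phase list had a ratio of 0.907 (0.857 to 0.960), with 0 of 12 genes past 1.5-fold. PCNA, the sliding clamp of the replication fork, was at 91.5 and 113 CPM and present in 74 of 177 cells (41.8%) and 479 of 885 (54.1%). The G2M list had a ratio of 1.02, with AURKB, a mitotic kinase, the 1 gene of 13 past 1.5-fold, at 23.6 and 35.6 CPM. Of all genes, 0.877% passed that fold upward and 1.21% downward, so the counts in lists this short say little. The median cell held 5 S phase and 6 G2M UMIs, against 7 and 8 in the matched cells. At least 10 S phase UMIs were present in 56 cells (31.6%, 24.9 to 39.0) and 336 matched cells (38.0%, 34.8 to 41.3), so the shares overlapped within counting error. For 10 or more G2M UMIs the shares were 74 cells (41.8%, 34.5 to 49.4) and 407 matched cells (46.0%, 42.7 to 49.3).

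Markers of other cell types were few in the ACTA2-carrying cells. The immune list gave 43 UMIs in 177 cells and 303 in 885, a ratio of 0.709 (0.503 to 0.979). Of the 303 UMIs, 38 came from 1 matched cell, while no ACTA2-carrying cell held more than 3, so the ratio rests partly on that cell. Of the 14 genes of the immune list, 8 had 0 UMIs in the 177 cells, among them LYZ and TYROBP, markers of myeloid cells. CD74 gave 25 of the 43 UMIs, in 23 cells, and CD14 gave 12, in 12 cells. The epithelial list gave 51 and 351 UMIs, with EPCAM, CDH1, KRT8, KRT18, SFTPC, SFTPB and SCGB1A1 at 0 in the 177 cells. KRT7, a keratin, gave all 51 UMIs, in 19 of the 177 cells (10.7%). In the matched cells KRT7 had 324 UMIs, in 131 of 885 cells (14.8%). The mesothelial list gave 0 and 1 UMIs and the lymphatic list 3 and 10. Immediate early genes, which cell dissociation can induce, had a ratio of 1.01 with 0 of 6 genes past 1.5-fold. That count is near the background of 0.877% of all genes upward and 1.21% downward.

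Outside the PECAM1 limit, ACTA2 was also found in 3 shallow cells with little or no type I collagen and no UMI of the endothelial genes looked at. Among 48 lung cells with 0 PECAM1 and at most 1 type I collagen UMI, these 3 held 23, 7 and 16 ACTA2 UMIs at 2496, 1051 and 3215 UMIs in all. They had 17, 2 and 16 TAGLN UMIs, 0 UMIs of CDH5 and VCAM1, and mitochondrial shares of 0.0801%, 2.19% and 0.0933%. By contrast, each of the 16 PECAM1 cells with 2 or more ACTA2 UMIs held VCAM1, from 2 to 93 UMIs.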

How the data were processed

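The authors deposited counts, the UMIs per gene and cell from Cell Ranger 3.0.2, with Ensembl gene models on Sscrofa11.1, without normalization. The 22804 features were used as named in the files, and identifiers without a symbol were named from a table where it gave one, which left 6770 under their identifier. The 2 libraries are 1 per tissue and gave no replicates. Cells and lists were chosen with earlier results of these data known. No doublet caller was run.

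Cells were taken with 201 to 4999 genes and with less than 30% mitochondrial UMIs (13 genes). Each ACTA2-carrying cell was matched without replacement to 5 cells by total UMIs. UMIs were summed over a group and scaled to CPM. Intervals at 95% are exact: Poisson for levels, Clopper-Pearson for shares and conditional binomial for ratios of summed UMIs. For the ratio between parts A and B they are approximate, being Poisson limits of the expected UMIs in part B. Those limits leave out the error of the level in the cells without the gene in part A. A gene entered the ratios at 10 CPM or more as the mean of both groups, without ACTA2, PECAM1, COL1A1 and COL1A2, and passed at 1.5-fold. The genes named are those of 17 fixed lists and the 10 with the largest ratio each way with a UMI in at least 5% of cells of the higher group. One gene that this rule names is not reported here. Those of the collagen-rich proportion were chosen after their values were seen. The scripts were tested on simulated data. Python 3.11.15, numpy 2.4.6, pandas 2.3.3, scipy 1.17.1 and matplotlib 3.10.9 were used.

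Of the list genes, 12 were not among the features, CLDN5, TAGLN2 and COL4A1 among them. The alternatives changed the limits on PECAM1, collagen, ACTA2, genes and mitochondrial share, the matching, the depth and the immune cells.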

Additional observations from a re-analysis of the deposited data

How the results depend on the processing

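Counting error and the use of 1 library per tissue limit all values. No paired analysis was possible because no result comes from a test and each tissue has 1 library. The values below moved by more than the interval or spread of the main value. With 2 or more ACTA2 UMIs as the minimum, the share was 0.328%, and after a new match the ratio was 1.66 for TAGLN, 1.49 for the contractile list, 1.10 for the matrix list and 1.12 for the endothelial list. With each cell thinned to 5000 UMIs before ACTA2 was read, and no match, the share was 2.11% and the ratios were 1.02 for TAGLN, 1.03 for the contractile list, 0.977 for the matrix list and 1.07 for the endothelial list. With 1 matched cell per ACTA2-carrying cell the ratios were 0.886 for TAGLN, 1.07 for the matrix list and 1.06 for the endothelial list. Without matching, the endothelial ratio was 0.997, with no type I collagen UMI the TAGLN ratio was 1.01, and with the deepest 10% of cells left out the matrix ratio was 1.08. The cause of these changes was not tested. Chosen after seeing the data, leaving out the cells with 3 or more ACTA2 UMIs gave a ratio between parts A and B of 2.57. In all other alternatives, leaving out the cell with the most ACTA2 (7.93) among them, the values stayed within the main interval or spread, and TAGLN ranged from 0.886 to 1.66 over its 13 alternatives. An ACTA2 count of 0 in a cell says only that no transcript was captured, so the cells without ACTA2 may include cells that make it.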

Other observations

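When the 4879 PECAM1 cells were cut into 5 groups of equal size by other measures, the level of ACTA2 showed no order. By the level of the other actin and actin-binding genes, ACTA2 was at 4.35, 4.73, 4.48, 3.53 and 4.65 CPM from the lowest to the highest group. By the endothelial list it was at 5.22, 3.59, 4.03, 4.36 and 4.59 CPM. By the S phase list it was at 4.46, 5.53, 4.76, 3.88 and 3.29 CPM, and by the G2M list at 5.62, 2.68, 4.31, 3.62 and 5.33 CPM. Of the 16 cells with 2 or more ACTA2 UMIs, 7 lay in the highest group by the G2M list and 5, 1, 0, 3 and 7 lay in the 5 groups by TAGLN from low to high. The highest G2M group was also the deepest, with a median of 11585 UMIs against 8944 to 9591 in the other G2M groups. These groups were set after the data had been seen, and the differences were not tested.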
